A study of Mus musculus with 23 samples.

Results

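The cytosolic ribosomal protein genes were followed through the transcriptomes of 23 mouse brown adipose tissue (BAT) samples. Members were the protein-coding genes whose symbol is Rps or Rpl followed by the ribosomal protein's number, or Rplp0, Rplp1 and Rplp2, with the S6 kinases and pseudogenes left out. The rule used names alone and no measured value. It took 78 of the 14651 genes in the table, 30 of the small subunit and 48 of the large subunit, the latter with the 3 proteins of the stalk. Of the 79 protein-coding genes in the annotation whose symbol matched, 1 had no row in the table, and 1 further matching row (Rps4l) was left out because it is annotated as a pseudogene.

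The ribosome translates every cellular mRNA. Each of its core proteins is needed in a single copy per ribosome, apart from the stalk proteins P1 and P2, so the genes are usually described as transcribed and translated in step. Their mRNAs carry a 5′ terminal oligopyrimidine (TOP) tract, a run of C and T bases that begins at the cap, through which translation of these mRNAs is tied to the kinase complex mTORC1. Brown adipocytes make heat through Ucp1, and in lasting cold the tissue builds more mitochondria and protein.

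Samples came from male C57BL/6 mice, 8 to 12 weeks old. Control mice carried Mcu fl/fl, the gene of the pore subunit of the mitochondrial calcium uniporter with an exon between loxP sites, and no Cre. BAT-Mcu-KO mice carried the same floxed alleles and the UCP1-Cre transgene, which expresses Cre from the Ucp1 promoter and therefore in brown adipocytes, while other cells of the tissue keep Mcu. Mice of each genotype were kept at room temperature (RT) or at 4°C for 6 h, which gave 6 control mice at RT, 5 control mice at 4°C, 6 BAT-Mcu-KO mice at RT and 6 BAT-Mcu-KO mice at 4°C. By the study's methods, mice at 4°C were housed singly without bedding and, unless stated otherwise, without food. Temperature, housing and food cannot be told apart here. In bulk tissue, fewer cells of a type and less RNA per cell cannot be told apart either.

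Libraries held 7129271 to 21006347 reads on genes, of which 23.1% to 38.1% fell on genes of the mitochondrial genome. Neither measure differed between groups beyond its spread, with the smallest of 8 exact permutation p-values at 0.123 (two-sided, 0.873 adjusted over the 8). Mcu lay at 70.8 to 136 normalized counts in control mice and at 15.2 to 42.4 in BAT-Mcu-KO mice, without overlap. Ucp1 was at 50590 normalized counts or more in every mouse. Summed skeletal muscle markers ran from 43.6 to 69251 normalized counts, so some samples held muscle RNA.

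Ribosomal protein genes took a small part of the reads counted, which are those that aligned to a single place. Reads that match pseudogenes equally well are left out, so the shares do not measure how much of the RNA these mRNAs were. Per mouse, 26618 to 76776 reads fell on all 78 genes together. In control mice these made up 0.337% to 0.509% of reads at RT, and 0.304% to 0.493% at 4°C. The shares of BAT-Mcu-KO mice were 0.352% to 0.389% at RT, and 0.356% to 0.453% at 4°C. The ranges of all 4 groups overlapped.

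The start sites of the genes that the comparisons below turn on are shown first, since the TOP tract is the sequence feature for which these mRNAs are known. RefSeq promoter windows (GRCm38.p6) were at hand for 58 of the 78 genes. The 30 bases printed run from 10 bases before the annotated start to the 20th transcribed base, 5′ to 3′ on the transcribed strand. Capitals mark the longest unbroken run of C and T that touches the 10 bases on either side of the start, as far as it lies in the window. The following genes rose at 4°C in at least 1 genotype, and Rpl3, which rose too, had no window.
Rps6 (chr4:86857348-86857377, minus strand): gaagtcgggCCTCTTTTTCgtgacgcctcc
Rpl13a (chr7:45128726-45128755, minus strand): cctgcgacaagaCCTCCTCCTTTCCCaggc
Rps2 (chr17:24720053-24720082, plus strand): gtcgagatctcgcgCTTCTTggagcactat
Rpl10a (chr17:28328461-28328490, plus strand): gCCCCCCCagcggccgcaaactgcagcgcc
Rpl12 (chr2:32961702-32961731, plus strand): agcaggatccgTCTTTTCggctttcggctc
Rps28 (chr17:33824543-33824572, minus strand): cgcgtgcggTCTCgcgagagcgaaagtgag
Rpl24 (chr16:55966265-55966294, plus strand): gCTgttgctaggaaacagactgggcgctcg
Rpl4 (chr9:64173377-64173406, plus strand): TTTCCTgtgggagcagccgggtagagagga
The following genes fell at 4°C in control mice, together with Rps27, the parent of the paralog Rps27l.
Rpl35 (chr2:39005112-39005141, minus strand): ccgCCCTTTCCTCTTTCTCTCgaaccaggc
Rpl39 (chrX:37085203-37085232, minus strand): gctccgcctctagcgaCTTCTTCTaatcgc
Rps27l (chr9:66946076-66946105, plus strand): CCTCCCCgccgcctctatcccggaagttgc
Rps27 (chr3:90213629-90213658, minus strand): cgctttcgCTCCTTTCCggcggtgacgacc

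In the windows of Rps6, Rpl35 and Rps27 the annotated start was a C with at least 4 pyrimidines behind it, the textbook form of the TOP tract. Among the 70 promoter windows of the 58 genes, 13 (18.6%) had that form, against 2.38% of the 12716 windows of other genes in the table. A run of 8 or more pyrimidines touched the 10 bases on either side of the start in 41.4% of the windows of ribosomal protein genes and in 13.7% of the others. The letters show only what stands at the RefSeq start, and the start used in BAT was not measured. In Rpl13a, for example, a run of 14 pyrimidines begins at the third transcribed base. Genes with and without the textbook form stood among those that rose and among those that fell. A run of 8 or more was found in each gene that fell, Rpl35 (18), Rpl39 (8) and Rps27l (9). Of the genes that rose, Rps6, Rpl13a and Rpl4 had such a run, and Rps2, Rpl10a, Rpl12, Rps28 and Rpl24 did not. The runs of Rps27l and Rpl4 end before the annotated start, and that of Rpl39 begins at transcribed base 7. From that start, these runs are no TOP tracts.

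The members differed widely in level. Per kb of annotated exon, the mean over the 6 control mice at RT ran from 5.82 to 2874 normalized counts with a median of 213, and 76 of the 78 genes stood above the median of all genes with a known length (26.5). The highest was Rplp1, an acidic protein of the stalk that recruits elongation factors, at 2874 ± 762 normalized counts per kb (SD, n = 6). Among other high genes, Rpl8 was at 1838 ± 265, Rps15 at 1817 ± 405 and Rpl4 at 1488 ± 167. Rpl8 and Rps15, and Rps15 and Rpl4, differed by less than the larger of their SDs. The lowest were Rpl35 at 47.3 ± 8.47, Rpl23a at 42.9 ± 6.53, Rpl39l at 27.3 ± 11.2, Rpl3l at 10.1 ± 9.17 and Rpl24 at 5.82 ± 3.93. With the longest transcript in place of all exons, 4 of the 5 highest and all 5 of the lowest stayed in place.

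**Figure D1:**
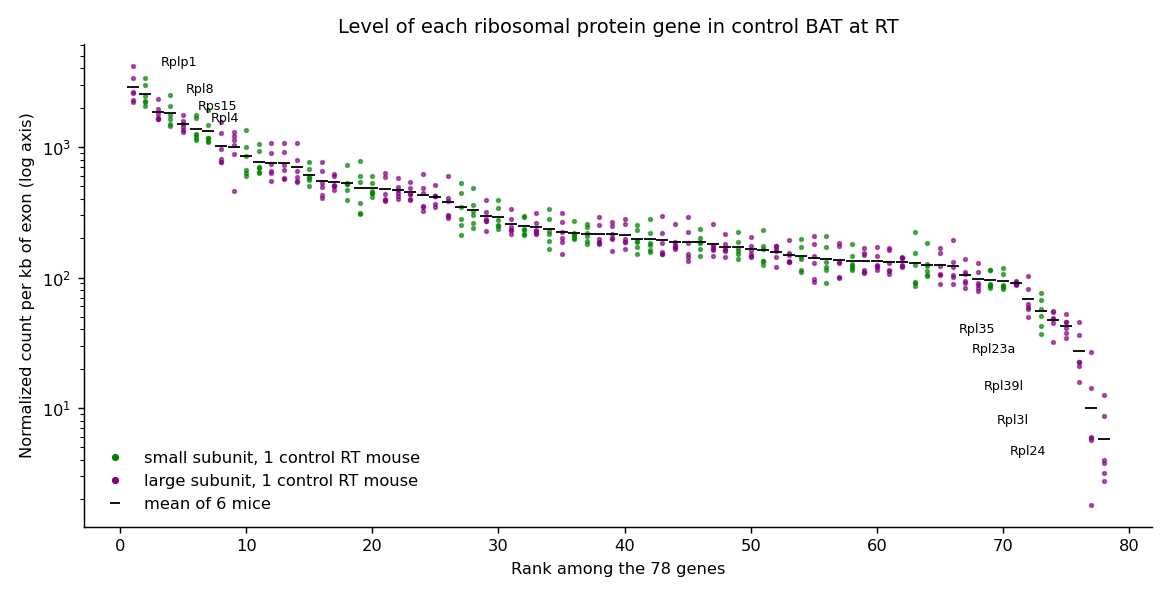
Level of each of the 78 ribosomal protein genes in control BAT at RT, in normalized counts per kb of exon on a log axis, ranked from highest to lowest. Each dot is a mouse with a count above 0, green for the small and purple for the large subunit, and black bars are means of 6 mice, which fall from 2874 for Rplp1 to 5.82 for Rpl24.

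These levels rest on reads that could be placed. Ribosomal protein genes have many processed pseudogenes, and the files count reads that aligned to a single place. In the annotated transcripts, a median of 71.1% of each member's 25-base windows occurred in no other gene, with a range from 3.06% to 100%. The same median was 92.3% for 76 mitochondrial ribosomal protein genes and 95.4% for 70 genes of ribosome assembly. Of the 78 members, 67 shared windows with 10 or more other genes and 36 had exons that overlap another gene's exons. Rpl24 was counted from 3 to 24 reads per library, and 484 of its 1030 exon bases also belong to Gm28037. Rpl35 had 10.2% unique windows and overlaps Arpc5l and Wdr38 on the other strand, and Rpl23a had 16.3% and overlaps Tlcd1. Strand was not used in counting, so reads of such pairs cannot be told apart, and the levels of these genes are uncertain.

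The study asked how BAT answers 6 h of cold with and without Mcu. In control mice, few ribosomal protein genes moved. Of 78, 5 rose (Rps2, Rpl24, Rps6, Rpl10a and Rpl13a), 3 fell (Rpl39, Rpl35 and Rps27l) and 70 did not pass the test (limma, adjusted p under 0.05 over all 14651 genes). Of all genes tested, 22.3% rose and 23.7% fell by the same rule, or 46.0% in all, beside 10.3% of the ribosomal protein genes. The members' log2 fold changes had a median of -0.06 (all genes, -0.02), and their median size without regard to sign was 0.13 (all genes, 0.45). The median SE was 0.13 for members and 0.19 for all genes. The calls were spread over both subunits, 3 of 30 genes in the small and 5 of 48 in the large.

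Rps6, the small subunit protein that S6 kinases phosphorylate, had the smallest p. Its normalized counts in control mice at RT ran from 316 to 427 with a median of 336. At 4°C they were 483, 367, 444, 538 and 552. Of the 5 mice at 4°C, 4 stood above every mouse at RT. The log2 fold change was 0.45 ± 0.11 (SE, n = 6 and 5, limma adjusted p = 0.00103). Of the windows in the annotated transcripts of Rps6, 54.3% occurred in no other gene, and the rest were shared with 44 pseudogenes.

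Rps2, a small subunit protein near the mRNA entry channel, moved the most. At RT it ran from 165 to 379 normalized counts with a median of 230. At 4°C the counts were 259, 508, 1160, 1012 and 1446. The groups overlapped in the mouse at 259, and the other 4 mice at 4°C were above all at RT. The log2 fold change was 1.59 ± 0.40 (SE, limma adjusted p = 0.00203), and without a mouse at a time it stayed between 1.35 and 1.97. Only 48.9% of its 25-base windows were unique, with 116 pseudogenes among the genes that share the rest.

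Rpl10a, a protein of the large subunit's L1 stalk, was even at RT, from 211 to 228 normalized counts with a median of 216. At 4°C it scattered over 392, 197, 305, 255 and 369, so that 4 mice lay above the RT range and 1 below it. The log2 fold change was 0.43 ± 0.13 (SE, limma adjusted p = 0.0106). Rpl13a, a large subunit protein also known from a complex that silences inflammatory mRNAs, ran from 849 to 1223 with a median of 968 at RT. Its counts were 1206, 964, 1149, 1180 and 1305 at 4°C. The ranges overlapped, with a log2 fold change of 0.23 ± 0.09 (SE, limma adjusted p = 0.0338). Exons of Rpl13a overlap those of other genes, among them the protein-coding Gm45713 on the same strand. Rpl24 rose from a median of 4.01 normalized counts to 12.1, a log2 fold change of 1.12 ± 0.38 (limma adjusted p = 0.0166) at counts too few to weigh much.

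Among the genes that fell, Rpl39 encodes a small protein at the exit tunnel. It ran from 133 to 299 normalized counts at RT with a median of 197, and was at 144, 111, 116, 146 and 167 at 4°C. The ranges overlapped, and the log2 fold change was -0.53 ± 0.17 (SE, limma adjusted p = 0.0139). Rps27l is a paralog of Rps27 that is known as a p53 target. It ran from 928 to 1441 at RT with a median of 1024, and was at 1119, 785, 698, 804 and 846 at 4°C. Here 4 of 5 mice at 4°C were below every mouse at RT, at a log2 fold change of -0.40 ± 0.12 (SE, limma adjusted p = 0.0075). Rpl35, which sits beside the exit tunnel, ran from 39.6 to 68.4 at RT with a median of 60.6. At 4°C it was at 50.6, 30.4, 33.6, 44.1 and 54.5, a log2 fold change of -0.47 ± 0.18 (SE, limma adjusted p = 0.0391). In none of the 78 genes did all 5 control mice at 4°C lie outside the range of the RT mice, on the higher or on the lower side, while 13.0% of all genes did so upward and 12.3% downward.

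**Figure D2:**
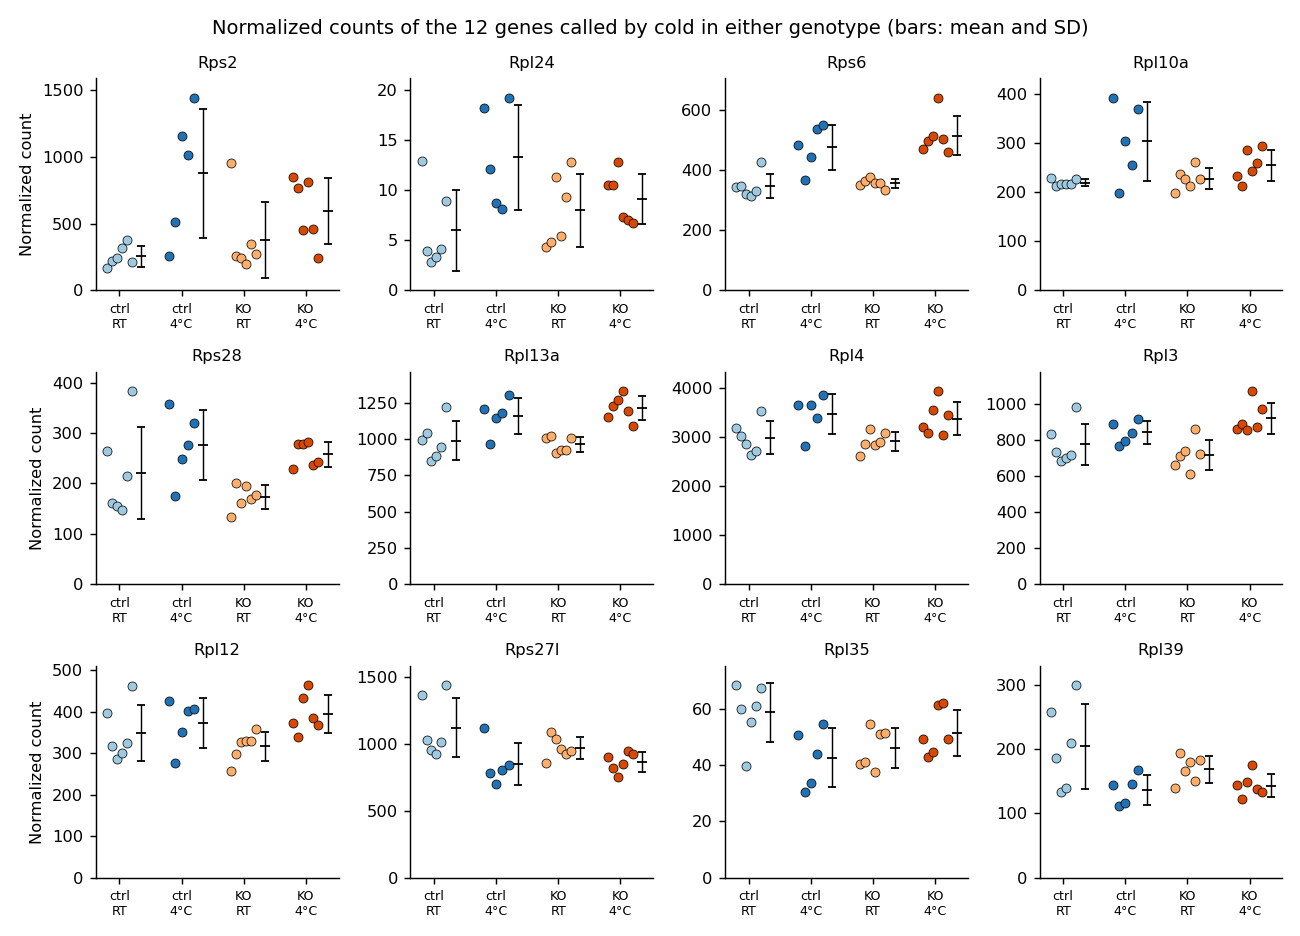
Normalized counts of the 12 ribosomal protein genes called by cold in either genotype, 1 panel per gene with the axis from 0. Each point is a mouse (ctrl, control; KO, BAT-Mcu-KO), and the black bar beside each group is its mean with SD; Rps6 rises in both genotypes, from 347 to 477 and from 357 to 515 in the means.

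In BAT-Mcu-KO mice, which share no animal with the control comparison, 6 of the 78 genes rose at 4°C and 0 fell. They were Rps28, Rps6, Rpl3, Rpl13a, Rpl12 and Rpl4. The fit took each gene's spread from all 23 mice, so the p-values of the 2 cold comparisons are not independent. Rpl12 lies outside the rule by which genes were named and is given because it completes the count. Of all genes, 21.4% rose and 21.9% fell, or 43.3% in all, beside 7.69% of the members. Beside the 0 members that fell, 10 members in either direction had an unadjusted p under 0.05 in limma, as did 7317 of all 14651 genes. Lower calls by edgeR took in 1 member and 3371 of all genes, and those by DESeq2 0 members and 3390 of all genes. The median log2 fold change was 0.09 (all genes, -0.02), with 55 genes above 0 and 23 below.

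Rps6 again had the smallest p. In BAT-Mcu-KO mice it ran from 333 to 378 normalized counts at RT with a median of 358. At 4°C it ran from 462 to 642 with a median of 500, so the groups did not overlap. The log2 fold change was 0.52 ± 0.10 (SE, n = 6 and 6, limma adjusted p = 0.000154). Rpl13a lay between 907 and 1021 at RT and between 1093 and 1329 at 4°C, again without overlap, at 0.33 ± 0.08 (SE, limma adjusted p = 0.00282). Rps28, one of the smallest proteins of the small subunit, lay between 134 and 201 at RT and between 229 and 283 at 4°C, also apart, at 0.58 ± 0.19 (SE, limma adjusted p = 0.0147).

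Rpl3, a core protein near the peptidyl transferase centre, ran from 611 to 861 normalized counts at RT with a median of 717 and from 855 to 1072 at 4°C with a median of 884. Of the 6 mice at 4°C, 5 stood above every mouse at RT, and the log2 fold change was 0.37 ± 0.09 (SE, limma adjusted p = 0.00255). Rpl12, a protein at the base of the stalk, went from a median of 327 to 379 (0.31 ± 0.12, SE, limma adjusted p = 0.0392). Rpl4, which lines the exit tunnel, went from a median of 2880 to 3328 (0.21 ± 0.09, SE, limma adjusted p = 0.0498). For Rpl4 the control comparison gave nearly the same change on the other side of the threshold, 0.22 ± 0.09 (SE, limma adjusted p = 0.0504). Every mouse at 4°C exceeded every mouse at RT in 4 of the 78 genes and lay below in 0, beside 12.4% and 11.9% of all genes. Those were Rps6, Rpl13a, Rps28 and Rpl7a, the last named after its values were seen. Rpl7a lay between 642 and 724 at RT and between 738 and 939 at 4°C, and its limma adjusted p was 0.0626. Of the windows in its annotated transcripts, 52.1% occurred in no other gene, with 172 pseudogenes among the genes that share the rest.

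Rps6 and Rpl13a were called in both genotypes, and 12 genes were called in at least 1. The 6 genes called in control mice alone were picked by their change there, which by itself makes a smaller change in the other genotype likely. On the log2 scale their changes in BAT-Mcu-KO mice were 0.77 ± 0.38 for Rps2, 0.24 ± 0.36 for Rpl24, 0.16 ± 0.13 for Rpl10a, -0.24 ± 0.16 for Rpl39, 0.16 ± 0.17 for Rpl35 and -0.16 ± 0.11 for Rps27l (SE). The 3 genes called in BAT-Mcu-KO mice with a control adjusted p above 0.1 changed in control mice by 0.37 ± 0.20 for Rps28, 0.13 ± 0.10 for Rpl3 and 0.10 ± 0.13 for Rpl12. None of these differences between genotypes passed the interaction test given below.

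**Figure D3:**
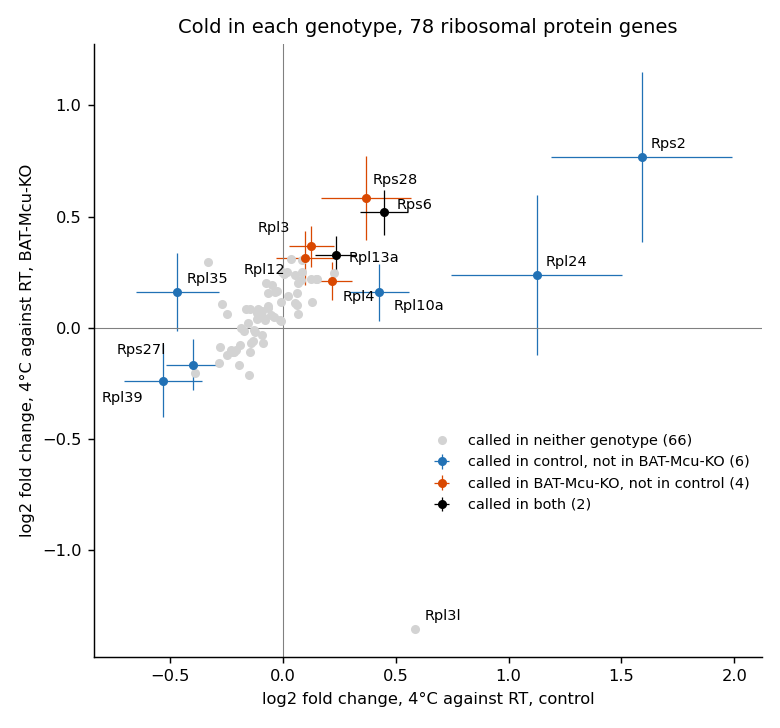
log2 fold change of each of the 78 ribosomal protein genes at 4°C against RT in control mice (horizontal) and in BAT-Mcu-KO mice (vertical), on the log2(normalized count + 1) scale. Bars are SE for the 12 called genes, and most of the 66 grey genes lie within 0.5 of 0 on both axes, with Rpl3l at the lower edge.

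The size of these small changes depended on how libraries were put on a common scale. With libraries scaled to their 75th percentile, 3 genes rose and 10 fell in control mice in place of 5 and 3, at a median of -0.17. That scaling moved the median of all genes by cold in control mice from -0.02 to -0.13 and the higher share of all calls from 48.5% to 38.2%. Relative to the median of all genes the members' median was -0.05 there, beside -0.04 as reported above. Under quantile normalization it was -0.15 relative to all genes, with 4 genes higher and 11 lower. The control median also rested on single mice. Without control RT mouse 6 it was 0.04, or 0.06 relative to all genes, and without control 4°C mouse 2 it was 0.0084. The BAT-Mcu-KO median of 0.09 became 0.0016 under quantile normalization, 0.04 under 75th percentile scaling (0.11 relative to all genes, as before) and 0.03 without BAT-Mcu-KO 4°C mouse 4.

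Single mice also decided some calls near the threshold. The control call of Rpl35 was lost without any 1 of control RT mice 1, 2, 5 and 6 and control 4°C mice 2, 3 and 4 (limma adjusted p from 0.0502 to 0.128). That of Rpl13a was lost without any 1 of control RT mice 3, 4 and 5 and control 4°C mice 1, 3, 4 and 5 (limma adjusted p from 0.0522 to 0.106), and that of Rpl24 without control 4°C mouse 5 (0.0538). Under the 12 other settings Rpl13a lost its control call in 4 (0.0762 to 0.544), Rpl35 in 3 (0.0531 to 0.103) and Rpl10a in 1, 75th percentile scaling (0.053). In BAT-Mcu-KO mice Rpl4 lost its call in 15 of 23 leave-outs and Rpl12 in 5 of 23, those without RT mouse 1 or 2 or 4°C mouse 3, 4 or 5 (0.0525 to 0.103). They lost it in 6 and in 4 of the 12 other settings, at up to 0.547 for Rpl4 and 0.105 for Rpl12, and Rpl13a in 1, quantile normalization (0.1001). Rps28 rose in control mice too once control RT mouse 6 (0.0126) or control 4°C mouse 2 (0.0334) was left out. Likewise, Rps2 rose in BAT-Mcu-KO mice without RT mouse 1 (0.0151) or 4°C mouse 6 (0.035). Rps6 in both genotypes, Rps2, Rpl39 and Rps27l in control mice, and Rpl3 and Rps28 in BAT-Mcu-KO mice kept their calls in all 23 leave-outs and all 12 other settings.

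Loss of Mcu called no ribosomal protein gene at either temperature. At RT, 0 of 78 genes passed the limma test, beside 0.0478% of all genes, and 1 of 78 had an unadjusted p under 0.05, beside 5.15% of all genes. DESeq2 and edgeR each called 0 members, and each had 2 with an unadjusted p under 0.05, while over all genes they called 20 and 7. At 4°C, 0 of 78 passed, beside 0.0751% of all genes, and 0 had an unadjusted p under 0.05, beside 6.98% of all genes. DESeq2 and edgeR called 0 members there as well, while over all genes they called 23 and 6. Members with an unadjusted p under 0.05 numbered 0 in DESeq2 and 1 in edgeR.

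The comparisons by genotype and the interaction share mice with those by cold. At RT the log2 fold change by genotype was below 0 in 71 of 78 genes, with a median of -0.12 (all genes, 0.00078), yet without control RT mouse 6 the median was -0.03. The smallest p belonged to Rpl37, a zinc-binding protein of the large subunit. It lay between 253 and 499 normalized counts in control mice, with a median of 286, and between 212 and 287 in BAT-Mcu-KO mice, with a median of 263. The groups overlapped, with a log2 fold change of -0.31 ± 0.15 (SE, limma adjusted p = 0.94). Rpl35 followed at -0.34 ± 0.17 (SE, limma adjusted p = 0.94) and Rps27a, which is made as a fusion with ubiquitin, at -0.20 ± 0.11 (SE, limma adjusted p = 0.945).

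At 4°C 47 genes lay above 0 and 31 below, with a median of 0.03, which was -0.06 without control 4°C mouse 2. The smallest p were those of Rpl10a at -0.22 ± 0.13 (SE, limma adjusted p = 0.785), Rpl35 at 0.29 ± 0.18 (SE, limma adjusted p = 0.793) and Rpl5, which binds 5S rRNA with Rpl11 and restrains Mdm2, at 0.20 ± 0.13 (SE, limma adjusted p = 0.799).

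The interaction asks whether cold acted differently in the genotypes. In limma 0 of 78 members passed, beside 0% of all genes, and 1 member had an unadjusted p under 0.05, beside 5.99% of all genes. DESeq2 and edgeR called 0 members, with 3 and 4 at an unadjusted p under 0.05. Over all genes DESeq2 called 28 (5 higher and 23 lower) and edgeR 0. The difference was above 0 in 70 of 78 genes, with a median of 0.13 (all genes, 0.01), and this median was 0.04 without control RT mouse 6. Rpl35 had the smallest p, with a fall of 0.47 in control mice, a rise of 0.16 in BAT-Mcu-KO mice that did not pass, and a difference of 0.63 ± 0.25 (SE, limma adjusted p = 0.793). Rpl23a at 0.62 ± 0.31 (limma adjusted p = 0.841) and Rpl3 at 0.24 ± 0.14 (limma adjusted p = 0.85) came next.

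Genes of special roles were read whatever their change. The stalk proteins Rplp1 and Rplp2 did not pass in any of the 5 comparisons, with mean levels of Rplp1 at 1434 ± 380, 1334 ± 205, 1323 ± 144 and 1361 ± 100 normalized counts (SD) in control RT, control 4°C, BAT-Mcu-KO RT and BAT-Mcu-KO 4°C mice. For Rplp2 the means were 1561 ± 410, 1297 ± 225, 1403 ± 146 and 1285 ± 81.6. Rplp0, the anchor of the stalk and a common reference gene for qPCR, was far less even. At RT it spanned 758 to 2143 in control and 741 to 2102 in BAT-Mcu-KO mice. At 4°C its counts were 2306, 681, 1511, 874 and 1854 in control mice, and spanned 765 to 2283 in the knockout. No mouse lay between 1006 and 1426, with 9 mice below that gap and 14 above, and every group had mice on both sides. Of the windows in the annotated transcripts of Rplp0, 54.1% occurred in no other gene. The rest were shared with 16 genes, 14 of them pseudogenes. The part of read placement in the spread of Rplp0 was not tested.

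Rpl11 and Rps19 did not pass in any comparison either. Rpl11 had means of 485 ± 105, 423 ± 72.2, 435 ± 19.4 and 415 ± 50.4 normalized counts (SD) in the order above. Rps19, the gene most often mutated in Diamond-Blackfan anaemia, had means of 802 ± 140.5, 759 ± 157, 749 ± 81.9 and 733 ± 86.6. In each of these genes the differences between group means were smaller than the largest SD within a group.

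Paralogs of ribosomal protein genes were uneven in level beside their parents. Rpl3l, the form of Rpl3 made in striated muscle, was at 10.1 ± 9.17 normalized counts per kb in control mice at RT, beside 245 ± 36.1 for Rpl3. It ran from 0 to 280 normalized counts over the 23 mice. The 6 mice with the most Rpl3l (81.5 to 280) had summed muscle markers of 18156 to 69251 normalized counts, and the other 17 had 43.6 to 12194. Those 6 were control 4°C mice 2, 4 and 5 and BAT-Mcu-KO RT mice 3, 4 and 6. In the 3 mice with no Rpl3l read the muscle markers summed to 76.9 at most. None of the 13 muscle markers passed the test by cold in either genotype, and Rpl3l did not pass in any comparison. The markers' median log2 fold change was still 0.51 by cold in control mice and -1.05 in BAT-Mcu-KO mice. By genotype it was 1.80 at RT and 0.06 at 4°C, and in the interaction -1.66. The part of muscle RNA in the changes of the ribosomal protein genes was not tested.

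Rpl39l, known from testis, was at 27.3 ± 11.2 per kb in control mice at RT, beside 142 ± 45.7 for Rpl39. Rps27l was the exception among paralogs with 1377 ± 272 per kb, above the 345 ± 123 of its parent Rps27. In the annotated transcripts, 82.1% of the windows of Rps27l and 71.4% of those of Rps27 occurred in no other gene. The genes that share the rest include 6 pseudogenes for Rps27l and 15 for Rps27. What part reads left out for this reason had in the difference was not tested. By cold in control mice Rps27l fell, as given above, while Rps27 had means of 360 ± 128 and 346 ± 93.5 normalized counts (SD, n = 6 and 5) and did not pass. Rpl10 (604 ± 117 and 704 ± 115) and Rps4x (786 ± 111 and 703 ± 59.1) did not pass either.

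Within a group, the ribosomal protein genes of a mouse moved together. In control RT mice 1 and 6, 75 of the 78 genes lay above their group's mean on the log2 scale. In control RT mouse 4 it was 1 gene and in mouse 3 it was 5. Among control mice at 4°C, mouse 5 had 74 genes above the mean, mouse 1 had 64 and mouse 2 had 3. Of all 14651 genes, 50.8% to 53.8% lay above the group mean in each of these mice. In BAT-Mcu-KO mice the number above the mean was 10 to 60 at RT, and 12 to 73 at 4°C, where mouse 4 had 73.

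These shared shifts were as large as many of the changes by cold. The median deviation of the 78 genes from their group mean was -0.24 to 0.44 log2 units among control mice at RT, and -0.32 to 0.21 at 4°C. Among BAT-Mcu-KO mice it was -0.17 to 0.08 at RT, and -0.13 to 0.24 at 4°C. The 359 other genes with a longest transcript under 1000 bp and a mean of at least 50 normalized counts were read beside them, because the members are short, with a median longest transcript of 1077 bp against 3203 bp for all genes. In control mice at RT these short genes moved with the members, at 0.35 and 0.24 in mice 6 and 1 and at -0.17 and -0.15 in mice 3 and 4. Genes of 4000 bp or more went the other way, at -0.16 in mouse 6 and -0.08 in mouse 1.

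At 4°C the values were less alike in 3 of the 4 mice with the largest shifts. Control mouse 1 had members at 0.20 and short genes at 0.13. Control mouse 2 had members at -0.32 and short genes at -0.04, and control mouse 5 had members at 0.21 and short genes at -0.01. BAT-Mcu-KO mouse 4 had members at 0.24 and short genes at -0.03. Mitochondrial ribosomal protein genes stood at 0.0031, 0.02 and -0.12 in the last 3 mice, and at 0.05 in control mouse 1. In control RT mice 6, 1, 3 and 4 they stood at 0.24, 0.16, -0.08 and -0.12, on the same side as the members. In control RT mice 2 and 5 they were at 0.02 and -0.19, with members at -0.11 and -0.04. What part transcript length had in the group differences was not tested.

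**Figure D4:**
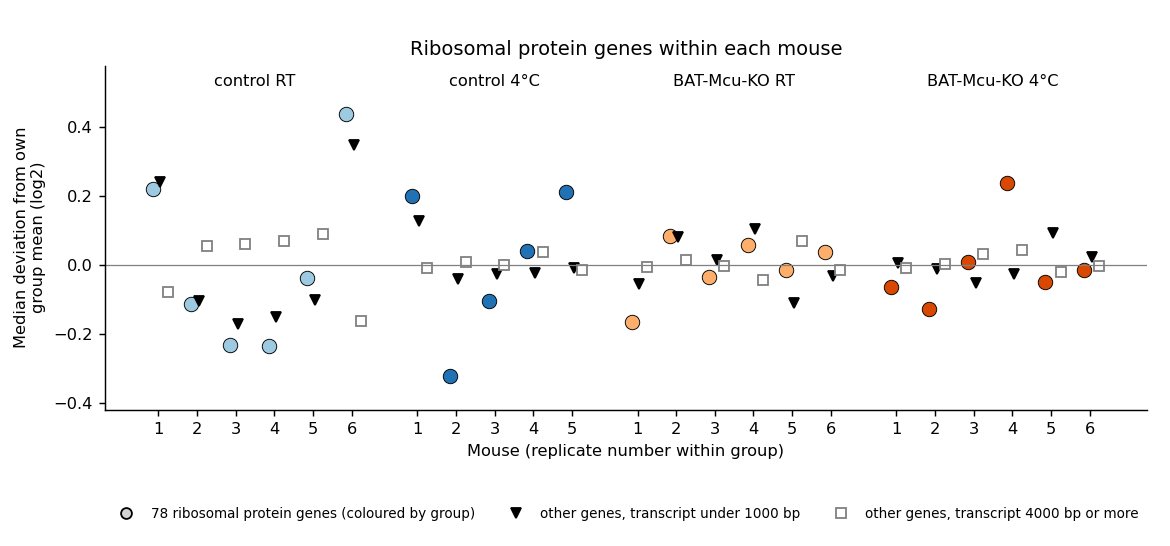
Median deviation from the own group's mean, in log2 units, for the 78 ribosomal protein genes (circles), for other genes with a longest transcript under 1000 bp (triangles) and for other genes of 4000 bp or more (squares), 1 column per mouse. Circles and triangles lie close together in control mice at RT, where mouse 6 reaches 0.44 and 0.35, and apart in control mouse 2 and BAT-Mcu-KO mouse 4 at 4°C.

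Other genes of the pathway are given by their counts, to be read beside the 22.3% of all genes that rose and 23.7% that fell in control mice and the 21.4% and 21.9% in BAT-Mcu-KO mice. No list was tested against another. Of 70 genes of ribosome assembly, the nucleolus and RNA polymerase I, which build the ribosome around these proteins, 52 rose and 2 fell in control mice (median log2 fold change 0.56), and 51 rose and 2 fell in BAT-Mcu-KO mice (median 0.52). Among them were Nop2, an rRNA methyltransferase, at 1.39 ± 0.09 (SE), the nucleolar helicase Ddx21 at 1.54 ± 0.11 and Rrp12, a factor in the export of pre-ribosomes, at 1.83 ± 0.15 in control mice. Of 5 chaperones that escort single ribosomal proteins, 3 rose and 1 fell in control mice, with Heatr3, the escort of Rpl5, at 1.00 ± 0.19 and Grwd1, the escort of Rpl3, at 0.85 ± 0.17. In BAT-Mcu-KO mice 4 rose and 0 fell.

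Other TOP mRNAs were mixed. Of 22, 7 rose and 4 fell in control mice, and 8 rose and 4 fell in BAT-Mcu-KO mice, with medians of 0.17 and 0.19. Npm1, a nucleolar chaperone, rose by 0.77 ± 0.11 in control mice, while Nap1l1, a histone chaperone, fell by 0.57 on the log2 scale. The name pattern misses 8 further genes of ribosomal proteins or of their paralogs, such as Rpl7l1. Of these 8 genes, 2 rose in control mice, 3 rose in BAT-Mcu-KO mice and none fell. The 2 were Rpl7l1 at 0.65 ± 0.11 and Gnb2l1, the Rack1 protein of the small subunit, at 0.31 ± 0.09.

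Of 33 genes of mTORC1 and translation control, 12 rose and 11 fell in control mice and 12 rose and 13 fell in BAT-Mcu-KO mice. Among those that fell in control mice were Pdcd4 at -1.88 ± 0.14, an inhibitor of eIF4A and substrate of S6 kinase, and Eif4ebp1 at -1.06 ± 0.10, which holds back eIF4E. Sesn2, a leucine sensor upstream of mTORC1, rose by 1.48 ± 0.19. Of 76 mitochondrial ribosomal protein genes, 7 rose and 34 fell in control mice (median -0.23) and 10 rose and 21 fell in BAT-Mcu-KO mice (median -0.09). Genotype called 0 genes of any of these 6 lists at either temperature in limma.

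Some markers of other cells also moved with cold. Of 10 macrophage markers 3 rose in control mice and 5 in the knockout, with 0 falling. Their summed level was 884 to 1274 normalized counts in control mice at RT, and 1040 to 1651 at 4°C. In the knockout it was 740 to 1328 at RT, and 1291 to 1809 at 4°C. Of 9 endothelial markers 3 rose and 2 fell in control mice and 3 rose and 1 fell in BAT-Mcu-KO mice, with summed levels of 3848 to 5356 and 6303 to 10623 normalized counts in control mice at RT and at 4°C. Of 9 fibroblast and progenitor markers, 1 rose in control mice and 2 in the knockout. Of 9 lymphocyte markers 2 had a row, of which 0 moved in control mice and 1 fell in BAT-Mcu-KO mice. Of 13 brown adipocyte markers 6 rose and 5 fell in control mice and 5 rose and 2 fell in BAT-Mcu-KO mice. Their part in the changes of the ribosomal protein genes was not tested.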

How the data were processed

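RNA of BAT from 23 mice was made into Smart-seq2 libraries, and paired short reads were aligned by the authors to mm10 with STAR 2.4.0j and counted per gene with HTSeq from uniquely mapped reads, irrespective of strand. The deposited values are a signal, normalized counts: reads divided by a DESeq2 size factor per library. Every gene kept had at least 8 reads in at least 6 libraries. Whole reads were recovered from the value of 1 read per library (100% of values whole within 0.1 of a read). A table of the authors' own fold changes was not used.

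Differences were tested with limma 3.58.1 on log2(normalized count + 1) with 4 group means over all 23 mice and a variance trend, and p-values were adjusted by Benjamini-Hochberg over 14651 genes. A fold change on this scale is understated for low genes. DESeq2 1.42.0 and edgeR 4.0.16 on the recovered reads, other scalings, filters, pseudocounts and leave-outs were alternatives. By cold in control mice edgeR called 3382 genes higher and 3398 lower, and limma 3269 and 3466. Lengths, overlaps and 25-base windows came from GENCODE M21. The labels number mice within groups, and p-values measure the spread between these mice.

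Members and gene lists were chosen with earlier results of these data known. Genes named were those with the largest called changes by cold, the 3 smallest p by genotype and interaction, genes of special role, and the 5 highest and 5 lowest levels per kb. No list was tested as a set. The values of 1 gene that this rule names are not reported here.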

Additional observations from a re-analysis of the deposited data

Results flagged for a closer look

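In 7 of 120 groups of values tested, 1 mouse stood apart from the rest of its group by Dixon's criterion, and chance alone flags about 1 group in 20. Rps2 was at 954 normalized counts in BAT-Mcu-KO RT mouse 1, with the other 5 mice of that group between 194 and 347. Rps6 was at 427 in control RT mouse 6 (others 316 to 348) and at 642 in BAT-Mcu-KO 4°C mouse 4 (others 462 to 513). Rpl11 was at 691 in control RT mouse 6 (others 393 to 479). Rpl8 was at 3143 in BAT-Mcu-KO 4°C mouse 4 (others 2466 to 2710). In control RT mouse 6 and BAT-Mcu-KO 4°C mouse 4, 75 and 73 of the 78 genes lay above the group mean. Rpl10 was at 678 in BAT-Mcu-KO RT mouse 4 (others 557 to 583), and Rpl39l was at 41.0 in control 4°C mouse 2 (others 12.1 to 19.9).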

How the results depend on the processing

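By cold in control mice, the 5 genes higher and 3 lower became 3 and 10 with 75th percentile scaling, 11 lower with quantile normalization and 6 lower with scaling to non-mitochondrial reads. Leaving out 1 mouse gave 3 (without control 4°C mouse 5) to 8 higher (without control RT mouse 6 or control 4°C mouse 2) and 2 to 5 lower (5 without control RT mouse 3 or 4 or control 4°C mouse 1). In BAT-Mcu-KO mice the 6 higher became 3 with quantile normalization and 11 when only the groups compared were fitted, and the 0 lower became 1 with quantile normalization and with edgeR; leaving out 1 mouse gave 4 to 8 higher and 0 lower. No setting called a member by genotype or interaction. The share of reads on the 78 genes became 0.599%, 0.579%, 0.554% and 0.582% in control RT, control 4°C, BAT-Mcu-KO RT and BAT-Mcu-KO 4°C mice without genes of the mitochondrial genome. Rpl12 in control mice turned to -0.0074 with 75th percentile scaling. Except where the setting has fewer mice, the cause of these moves was not tested. Whether the same replicate numbers pair mice cannot be told, since mice of unlike number were not compared. Correlations of same-numbered mice were 0.04 to 0.22 between the 4°C groups, and below 0 for every number between the BAT-Mcu-KO groups. Over all pairs of groups they ran from -0.39 to 0.26. A replicate block gave 6 genes higher and 3 lower in control mice, against 6 and 0 in the knockout; the median by genotype at 4°C was -0.01. Depth limits Rpl24, Rpl39l, Rpl23a and Rpl35, at 3 to 90 reads per library, and Rpl3l, at 0 to 298.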

Other observations

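Rps4l, which is annotated as a transcribed processed pseudogene and was left out of the 78 genes, had 121 to 326 normalized counts in control mice at RT and 276 to 433 at 4°C. The knockout had 142 to 273 at RT and 288 to 414 at 4°C, without overlap. It rose by 0.64 ± 0.18 (SE, limma adjusted p = 0.00566) on the log2 scale in control mice and by 0.73 ± 0.17 (limma adjusted p = 0.00129) in BAT-Mcu-KO mice. Of the 34 rows named as ribosomal protein pseudogenes, 1 rose and 0 fell in control mice, and 1 rose and 2 fell in BAT-Mcu-KO mice. The row that rose in both was Rpl10-ps2, at 1.28 ± 0.47 (SE, limma adjusted p = 0.0287) and 1.73 ± 0.45 (limma adjusted p = 0.00287). All 34 rows together summed to 456 to 895 normalized counts per mouse.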
